A study of Homo sapiens with 6 samples.

Results

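The genes described here encode the machinery that folds and hydroxylates collagen in the endoplasmic reticulum, namely SERPINH1, P4HA1, P4HA2, P4HB, PLOD1, PLOD2 and PLOD3. They were chosen by name for this shared role, with their fold changes in these libraries already known, so changes between the groups are given for them as a description, and no test of theirs is read as evidence. All 7 were found among the 26485 genes of the deposited table, and all 7 passed the filter on low counts, as did 12854 genes in all. RNA was sequenced from THP1 cells, an established human acute monocytic leukemia line, after 6 h with withaferin A (WFA), a steroidal lactone of Withania somnifera, or with its vehicle DMSO. Each group held 3 libraries of THP1 cells grown in the same medium with serum, from 3 independent experiments per the study's methods. The sample labels state 1 mM WFA and the methods state 1 μM. The study used the comparison to ask how a short exposure changes gene expression in these cells.

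Collagen chains are translated into the endoplasmic reticulum, where proline and lysine residues are hydroxylated before the triple helix forms. SERPINH1 (HSP47) is a chaperone that binds the folded procollagen helix and is a known target of the heat shock factor HSF1. P4HA1 and P4HA2 are alternative catalytic alpha subunits of prolyl 4-hydroxylase, whose product stabilises the helix at body temperature, and P4HB, the protein disulfide isomerase, is their beta subunit and also folds many other proteins. PLOD1, PLOD2 and PLOD3 are lysyl hydroxylases, which prepare lysine for cross-links and, in the case of PLOD3, also attach sugars. The hydroxylases use iron, 2-oxoglutarate and ascorbate, and several of their genes are known to be induced by hypoxia. Collagen synthesis is best known from fibroblasts and bone cells and not from monocytic cells.

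The bases before the start sites of 4 of these genes are shown because HSF1 and the hypoxia-inducible factor, which are known to act on members of this family, have short recognition motifs that can be searched for there. Each line gives 250 bases from RefSeq on GRCh38.p14, 5′ to 3′ on the gene's strand and ending at the base before the start site. Capitals mark heat shock element units (GAANNTTC or TTCNNGAA) and the hypoxia response core (ACGTG), both searched on both strands. SERPINH1 is shown from chr11:75562003-75562252 (plus strand), P4HA1 from chr10:73096867-73097116 (minus strand), P4HA2 from chr5:132227092-132227341 (minus strand) and PLOD2 from chr3:146161185-146161434 (minus strand).
SERPINH1: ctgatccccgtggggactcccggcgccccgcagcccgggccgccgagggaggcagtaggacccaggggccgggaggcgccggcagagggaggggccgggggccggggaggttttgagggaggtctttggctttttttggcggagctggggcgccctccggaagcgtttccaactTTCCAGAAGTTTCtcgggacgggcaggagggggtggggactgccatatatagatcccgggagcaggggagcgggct
P4HA1: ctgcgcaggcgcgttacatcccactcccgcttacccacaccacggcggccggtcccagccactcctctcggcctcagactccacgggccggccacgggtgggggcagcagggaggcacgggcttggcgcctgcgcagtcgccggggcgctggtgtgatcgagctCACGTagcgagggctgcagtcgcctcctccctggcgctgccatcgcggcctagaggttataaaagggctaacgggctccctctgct
P4HA2: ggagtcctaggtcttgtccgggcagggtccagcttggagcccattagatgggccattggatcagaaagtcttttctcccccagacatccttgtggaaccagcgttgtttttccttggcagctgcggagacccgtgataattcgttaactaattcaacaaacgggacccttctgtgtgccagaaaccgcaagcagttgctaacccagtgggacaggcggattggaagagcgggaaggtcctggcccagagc
PLOD2: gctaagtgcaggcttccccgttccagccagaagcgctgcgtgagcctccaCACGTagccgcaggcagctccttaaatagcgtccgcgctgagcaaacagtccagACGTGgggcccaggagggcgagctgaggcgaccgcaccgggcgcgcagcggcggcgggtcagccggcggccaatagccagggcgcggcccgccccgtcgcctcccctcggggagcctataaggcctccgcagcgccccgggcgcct

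The SERPINH1 window held a pair of overlapping heat shock units, TTCCAGAA from 76 to 69 bases and GAAGTTTC from 71 to 64 bases before the start site, which together form an element of 3 alternating units. Among 35116 such windows of all genes, 11.6% held the 2-unit form and 0.441% held the 3-unit form. None of the other 7 windows of this family, which include a second start site of SERPINH1, held either form. The hypoxia response core was found once before P4HA1, between 86 and 82 bases from the start, and 2 times before PLOD2, at 200 to 196 and 146 to 142 bases. The second start site of SERPINH1 also had a match, and 18.5% of all windows held this core. P4HA2 had neither motif in its window, although its annotated gene extends well upstream of this start site. The antioxidant response element (TGACNNNGC), the CHOP-ATF4 site (TGATGNAA) and the ER stress response element were in none of the 8 windows, against 10.9%, 3.14% and 0.074% of all windows. The NF-Y binding motif (CCAAT) was found 3 times before P4HB, 2 times before P4HA2 and once each before PLOD2 and the second SERPINH1 start, with 32.0% of all windows holding at least 1. A TATA sequence (TATAAA) lay within 30 bases of the start of P4HB and within 29 of that of P4HA1, against 10.7% of windows with a match anywhere. These matches describe letters in a window and not bound sites.

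**Figure D1:**
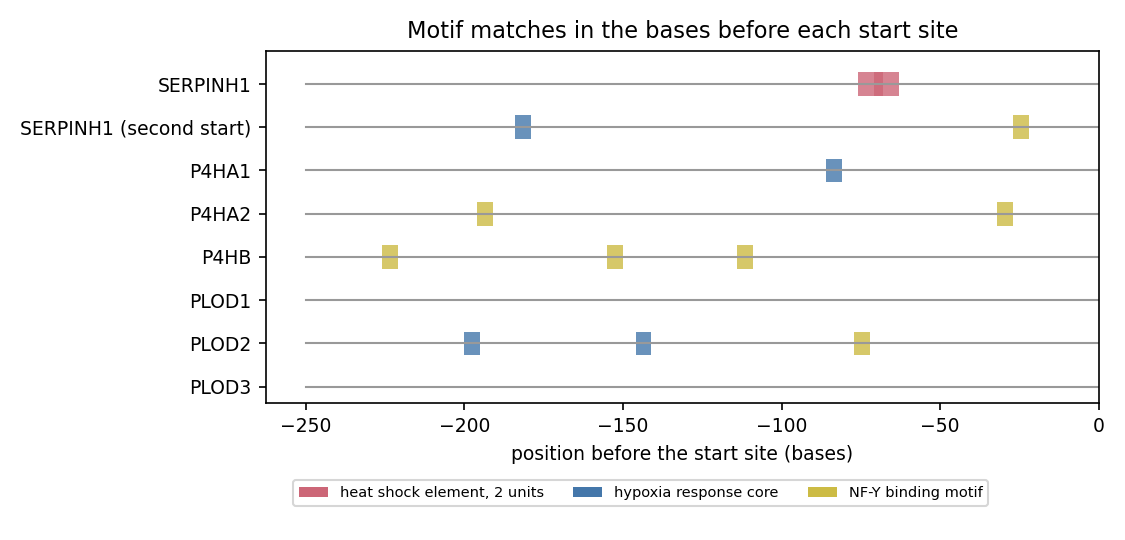
Positions of motif matches (coloured blocks) in the 250 bases before each start site (grey lines, 0 is the start site) for the 7 genes, with SERPINH1 drawn for both of its start sites. The overlapping heat shock units lie between 76 and 64 bases before the first SERPINH1 start, and hypoxia cores lie before P4HA1, PLOD2 and the second SERPINH1 start.

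Total counts per library ranged from 11006035 to 13872810, and expression is given as CPM, counts scaled by the TMM-adjusted library size. Counting error is small at this depth for most of these genes, the lowest count being 69 for P4HA2 in a DMSO library, and it does not cover differences between experiments. Libraries of the same group differed by more than counting noise (chi-square per gene from 5.92 to 10.9). All 12 markers of monocytic leukemia cells passed the filter, with LYZ at 1823 ± 278 CPM (SD, n = 3) in DMSO, and their summed level was 2881 to 3520 CPM in DMSO and 2544 to 3435 CPM in WFA, most of it LYZ. Of these 12, edgeR called 5 lower (CD14, CD33, PTPRC, CSF1R and SPI1) and 1 higher (CD68) with WFA. CD14 and CD33 had log2 changes of -1.22 and -0.85, and the part of these shifts in the results below was not tested. Of 10 fibroblast markers, COL1A2 and LUM had no count in any library, DCN had at most 1, and the summed level was 4.43 to 5.17 CPM in DMSO and 13.1 to 18.1 CPM in WFA, where most came from COL1A1. The summed level was at most 2.92 CPM in any library for 6 endothelial markers, 1.06 CPM for 6 epithelial markers and 2.17 CPM for 6 lymphocyte markers. In RNA from bulk cultures, a change in the RNA of each cell and a change in which cells are present cannot be told apart.

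The fit over all genes called a gene where its Benjamini-Hochberg adjusted p was below 0.05 by the quasi-likelihood method of edgeR. By way of description, 5 of the 7 genes fell among the 25.8% of tested genes called higher with WFA. SERPINH1, P4HA2, P4HA1 and PLOD1 were called and over 2-fold higher, as were 8.11% of tested genes, and PLOD3 lay just under 2-fold. None was called lower, against 24.7% of tested genes. In 6 of the 7 the lowest WFA library lay above the highest DMSO library, as it did for 29.6% of tested genes. Since the genes were chosen with this contrast known, these counts follow from the choice and nothing is read from them.

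SERPINH1 (chr11:75562056-75572783, plus strand, GENCODE 29) had 111, 88.1 and 73.8 CPM in DMSO replicates 1, 2 and 3, and 1276, 1356 and 1392 CPM in the WFA replicates. The groups were far apart, and the DMSO libraries spread over 40.6% of their mean against 8.63% in WFA. Its mean went from 90.9 ± 18.6 to 1341 ± 59.3 CPM (SD, n = 3 each). On the log2 scale the difference was 3.88 with a standard error (SE) of 0.14, or 14.7-fold with a 95% interval from 12.2 to 17.8, which placed it 46th from the top of the 12854 tested genes. In pairs of same-numbered libraries the log2 difference was 3.52, 3.94 and 4.23, the smallest coming from the pair whose DMSO library was highest. With WFA, this chaperone transcript made up 0.130% of all counts, against 0.00934% with DMSO.

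The alpha subunits of prolyl 4-hydroxylase were both higher with WFA, and P4HA2 had the largest fold change of the 7 genes. P4HA2 (chr5:132191838-132295315, minus strand) was low in DMSO, at 8.79, 7.11 and 5.75 CPM, and reached 184, 164 and 199 CPM in WFA. No WFA library was near the DMSO range. Its mean of 7.22 ± 1.52 CPM became 182 ± 17.5 (SD, n = 3 in both groups), a log2 difference of 4.65 (SE 0.14) or 25.1-fold (95% interval 20.8 to 30.1), 23rd from the top among tested genes. P4HA1 (chr10:73007217-73096974, minus strand) had 36.8, 39.2 and 44.7 CPM in DMSO and 218, 186 and 225 CPM in WFA. Its groups were also apart, with means of 40.3 ± 4.07 and 210 ± 20.9 CPM (SD, n = 3 in both groups) and a log2 difference of 2.38 (SE 0.10), or 5.21-fold (95% interval 4.52 to 6.01). An antisense transcript, P4HA2-AS1, shares 548 exon bases with P4HA2 and the library kit does not mark strand. That gene had at most 3 counts in any library, but how reads of the shared bases were assigned is not known. An antisense gene, AL731563.2, shares 47 exon bases with P4HA1 and was not analysed here.

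P4HB (chr17:81843159-81860694, minus strand), the beta subunit, had by far the highest level of the 7 genes in DMSO and was not called. It had 1431, 1383 and 1281 CPM in DMSO and 1512, 1552 and 1557 CPM in WFA. The WFA libraries were all above the DMSO libraries, but the distance was small beside that of the alpha subunits. The mean went from 1365 ± 76.7 to 1541 ± 25.1 CPM (SD, n = 3 in both groups), with a log2 difference of 0.17 (SE 0.09) that did not pass the threshold. The 95% interval of the fold was 0.995 to 1.28. An annotated antisense gene shares 529 exon bases with P4HB and was not analysed here.

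Among the lysyl hydroxylases, PLOD1 and PLOD3 were higher with WFA and PLOD2 was not called. PLOD1 (chr1:11934205-11975538, plus strand) had 64.9, 53.1 and 55.1 CPM in DMSO and 186, 192 and 210 CPM in WFA. Its means were 57.7 ± 6.35 and 196 ± 12.8 CPM (SD, n = 3 in both groups), a log2 difference of 1.76 (SE 0.10) or 3.39-fold (95% interval 2.97 to 3.87). PLOD3 (chr7:101205977-101218420, minus strand) was nearly equal in the DMSO libraries, at 103, 108 and 105 CPM, and had 195, 193 and 242 CPM in WFA. For PLOD3 the means were 105 ± 2.56 and 210 ± 28.0 CPM (SD, n = 3 in both groups), with a log2 difference of 1.00 (SE 0.10) or 2.0-fold (95% interval 1.75 to 2.28). Its exons share 6 bases with ZNHIT1, a neighbour on the other strand. PLOD2 (chr3:146069440-146163653, minus strand) had 12.2, 9.71 and 16.0 CPM in DMSO and 16.2, 11 and 15.7 CPM in WFA, and here the groups overlapped. Its log2 fold change was 0.18 (SE 0.19), with a 95% interval of the fold from 0.874 to 1.46, and in the pairs of replicates 1, 2 and 3 the difference was 0.40, 0.17 and -0.02. Replicate 2 was the lowest PLOD2 library in both groups.

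**Figure D2:**
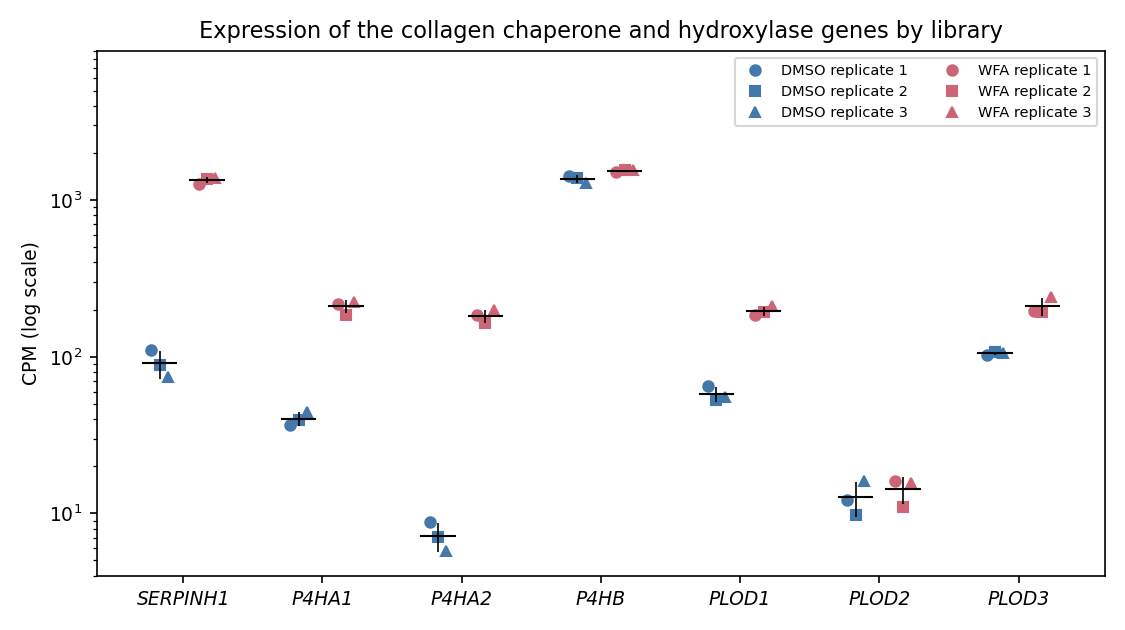
CPM (log scale) of each gene in each library, with DMSO in blue and WFA in red, marker shapes for replicates 1 to 3, horizontal lines for the mean and vertical lines for the SD of 3 libraries. The WFA libraries lie above the DMSO libraries for SERPINH1, P4HA1, P4HA2, PLOD1 and PLOD3 and, by a small distance, for P4HB, while those of PLOD2 overlap.

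**Figure D3:**
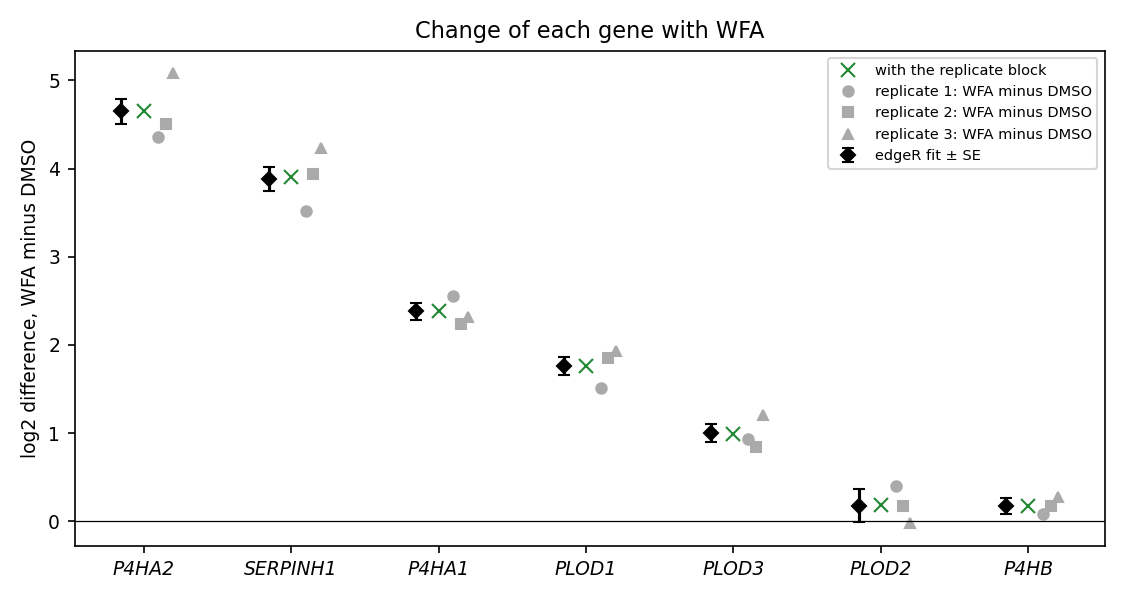
Log2 difference of WFA minus DMSO for each gene, as the edgeR estimate with its standard error (black), the estimate with the replicate number as a block (green crosses) and the difference within each same-numbered pair (grey). P4HA2 and SERPINH1 lead with 4.65 and 3.88, and the estimates of PLOD2 and P4HB, 0.18 and 0.17, lie near 0.

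Levels of different genes were compared per kilobase of the longest transcript, as RPKM. In DMSO the order was P4HB (524 ± 29.5 RPKM), PLOD3 (36.0 ± 0.878), SERPINH1 (26.8 ± 5.49), PLOD1 (19.6 ± 2.16), P4HA1 (14.2 ± 1.43), PLOD2 (3.39 ± 0.847) and P4HA2 (2.15 ± 0.455; SD, n = 3 each). SERPINH1 and PLOD1 in DMSO overlapped in single libraries, with 21.8 to 32.7 against 18.1 to 22.1 RPKM, and the lowest PLOD2 library, at 2.60 RPKM, lay just under the highest P4HA2 library, at 2.63. With WFA, SERPINH1 at 396 ± 17.5 RPKM came next to P4HB at 592 ± 9.65, and P4HA1 (73.7 ± 7.35), PLOD3 (72.0 ± 9.57), PLOD1 (66.6 ± 4.35) and P4HA2 (54.5 ± 5.24) came close together above PLOD2 (3.83 ± 0.775; SD, n = 3 each). P4HA1, PLOD3 and PLOD1 differed by no more than their spread over libraries there, and the highest P4HA2 library (59.5 RPKM) lay below the lowest PLOD1 library (63.2 RPKM). The order of P4HA2 beside PLOD1 and PLOD3 in WFA, and of SERPINH1 and PLOD3 in DMSO, depended on the length used. P4HA2 has a longer transcript than PLOD1 and PLOD3 (3349 against 2940 and 2920 bases) but a shorter coding sequence (1605 against 2181 and 2214). The same holds for SERPINH1 (3391 and 1254 bases) beside PLOD3 (2920 and 2214). Among all tested genes with a length, P4HA2 moved from the 24.1 to the 91.0 percentile of RPKM, SERPINH1 from 79.6 to 99.0, and P4HB stayed at 99.3 and 99.4.

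Ratios between these genes within a library do not depend on how libraries are scaled to each other. P4HA1 had 4.93, 6.50 and 9.16 times the reads per kb of P4HA2 in DMSO replicates 1, 2 and 3, and 1.40, 1.33 and 1.33 times in WFA. P4HA2 thus made up 16.9%, 13.3% and 9.84% of the alpha subunit reads in DMSO and 41.7%, 42.9% and 43.0% in WFA. For every 100 reads per kb of P4HB there were 3.12 ± 0.374 of the alpha subunits together in DMSO and 21.7 ± 2.17 in WFA (SD, n = 3 each). SERPINH1 went from 5.08 ± 0.777 to 66.8 ± 1.91 per 100 of P4HB (SD, n = 3 each). Per coding length these were 8.05 and 106.0, so the order of SERPINH1 and P4HB in WFA depended on the length used. Within the lysyl hydroxylases, PLOD1 went from 33.2 ± 2.84% to 46.9 ± 1.77% of the reads per kb, PLOD3 from 61.0 ± 3.01% to 50.4 ± 1.64% and PLOD2 from 5.74 ± 1.41% to 2.69 ± 0.520% (SD, n = 3 each), with no overlap between groups for any of the 3. The 6 genes other than P4HB together took 0.0323 ± 0.00190% of all counts in DMSO and 0.209 ± 0.0124% in WFA (SD, n = 3 each).

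**Figure D4:**
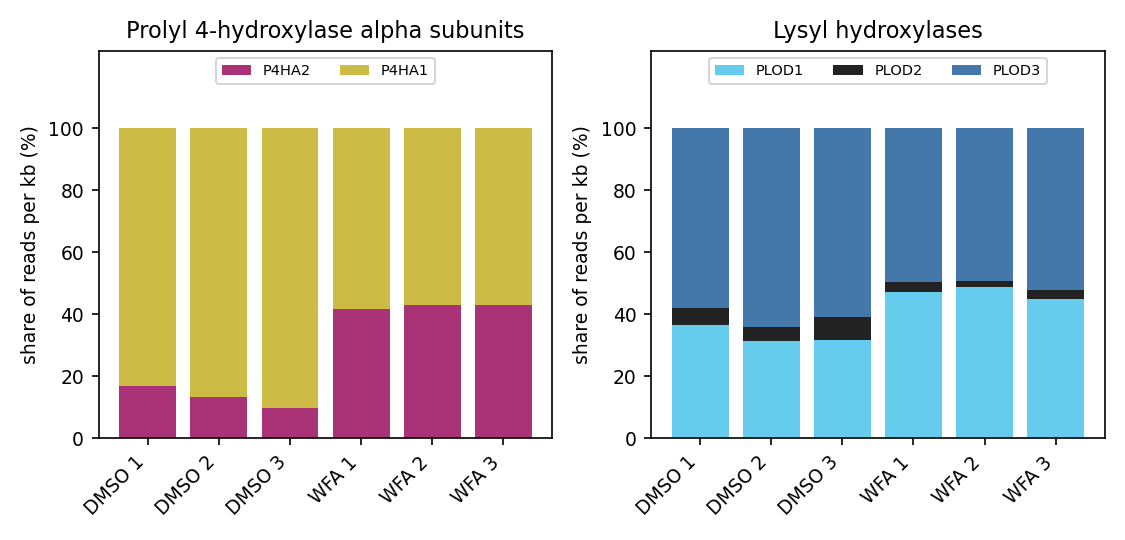
Share of reads per kb, in percent, of P4HA1 and P4HA2 (left) and of the 3 lysyl hydroxylase genes (right) in each of the 6 libraries. P4HA2 holds 9.84% to 16.9% of the alpha subunit reads in DMSO and 41.7% to 43.0% in WFA, and PLOD2 is the smallest lysyl hydroxylase share in every library.

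For each gene, the closest profiles were sought among the 9513 genes whose average log2 CPM exceeded 3, by the root mean square difference of log2 CPM over the 6 libraries after each gene was centred on its own mean. SERPINH1 was closest to DNAJA4 (difference 0.195) and BAG3 (0.269), both co-chaperones of HSP70, with log2 fold changes of 4.25 (SE 0.12) and 4.29 (SE 0.12). P4HA2 was closest to the same DNAJA4 (0.213) and to OSGIN1 (0.231), whose log2 fold change was 5.01 (SE 0.15). P4HA1 was closest to GABARAPL1 (0.097), an autophagy gene, and RIT1 (0.108), and PLOD1 to STIP1 (0.068), which links HSP70 and HSP90, and BCL6 (0.070). ZNF76 (0.043) and PBXIP1 (0.045) lay nearest to PLOD3, RNF123 (0.023) and the proteasome subunit PSMB4 (0.026) to P4HB, and ZIC5 (0.096) and RHOBTB3 (0.097) to PLOD2. The 6 libraries fall into 2 groups, so by this measure genes with a similar change between the groups lie close to each other.

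Of 14 genes for other enzymes and chaperones that modify collagen in the same compartment, 12 were tested, their median log2 change was 0.10 against 0.02 over all tested genes, and edgeR called 1 higher and 1 lower, against 25.8% and 24.7% of all tested genes. COLGALT1, the galactosyltransferase for hydroxylysine, fell from 279 to 201 CPM (log2 change -0.48 ± 0.09 SE, edgeR adjusted p = 0.000316). P3H2, a prolyl 3-hydroxylase, rose from 0.901 to 1.74 CPM (log2 change 0.93 ± 0.33 SE, edgeR adjusted p = 0.0291), but no library held more than 23 of its counts, and the call was lost in DESeq2's Wald test (adjusted p = 0.125) and on leaving out DMSO replicate 1 or 3 or WFA replicate 1 or 3. With the replicate block, 2 genes of this list were higher. P3H1, CRTAP and PPIB, which form the prolyl 3-hydroxylation complex, did not pass the threshold, with log2 fold changes of 0.10, 0.09 and 0.15.

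Of 16 genes for collagen export, propeptide cleavage and cross-linking, 10 were tested and had a median log2 change of 0.25. There were 5 higher and 0 lower by edgeR, against 25.8% and 24.7% of all tested genes (unadjusted p under 0.05 gave 0 lower too). DESeq2's Wald test called 3 higher and 0 lower, and 3 were higher without WFA replicate 1. KLHL12, an adaptor for the ubiquitin ligase that enlarges COPII carriers, rose with a log2 fold change of 0.76 (SE 0.08, edgeR adjusted p = 2.53e-06). MIA3, which loads procollagen into these carriers, rose with 0.44 (SE 0.08, edgeR adjusted p = 0.000539), and the protease ADAMTS3 with 1.12 (SE 0.32, edgeR adjusted p = 0.00838) at a mean of 1.85 CPM in WFA. The call for ADAMTS3 was lost in DESeq2's Wald test (adjusted p = 0.0561). The lysyl oxidase genes LOXL1, LOXL2 and LOXL4 were too low to be tested, and LOX and LOXL3 did not pass the threshold.

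Most collagen chains were barely detected in these cells. Of 44 chains, 17 were tested, 8 had no count in any library, and 21 (these 8 included) had at most 3 counts in every library. Of the tested chains, 5 were higher and 2 lower by edgeR (25.8% and 24.7% over all tested genes), with a median log2 fold change of 0.41. COL1A1 had 3, 4 and 10 counts in the DMSO libraries and 107, 106 and 135 in the WFA libraries, a log2 fold change of 4.47 (SE 0.34, edgeR adjusted p = 7.18e-08), whereas its usual partner chain COL1A2 had none in any library. COL1A1 passed the low-count filter only through its WFA libraries, so its place among the tested and higher chains depends on the group where it is high. COL24A1 rose from 5.76 to 17.3 CPM (log2 change 1.59 ± 0.16 SE, edgeR adjusted p = 9.59e-07) and COL6A1 from 23.8 to 61.6 CPM (log2 change 1.37 ± 0.14 SE, edgeR adjusted p = 1.50e-06). COL15A1 and COL8A2 fell, with log2 fold changes of -1.28 (SE 0.18, edgeR adjusted p = 3.51e-05) and -1.08 (SE 0.17, edgeR adjusted p = 8.74e-05). The most counted chain was COL9A2, at 527 CPM in DMSO and 974 in WFA, and it was among those called higher (log2 change 0.89 ± 0.14 SE, edgeR adjusted p = 8.72e-05). A further list of 23 genes held other proteins with a collagen-like domain, such as the scavenger receptors MSR1 and MARCO. It also held ACHE, which lacks that domain and binds COLQ. Of these genes, 6 were tested and 0 were called in either direction by edgeR (0 of them at an unadjusted p under 0.05), with a median of 0.00. DESeq2's Wald test called ACHE higher, a gene too low for the filter used here.

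P4HB belongs to the protein disulfide isomerases. The list held 24 genes, for these enzymes, their oxidases and MTTP, another partner of P4HB. Of these, 18 were tested, their median log2 change was 0.01, and edgeR called 2 higher and 5 lower, against 25.8% and 24.7% of all tested genes. ERO1B, an oxidase that recharges these enzymes, rose with a log2 fold change of 0.73 (SE 0.13, edgeR adjusted p = 0.000226). DNAJC10 fell with -0.38 (SE 0.10, edgeR adjusted p = 0.00513) and TMX3 with -0.31 (SE 0.09, edgeR adjusted p = 0.0103). ERP44 and ERP27 lay near the threshold, with log2 fold changes of 0.23 (edgeR adjusted p = 0.0443) and -0.74 (edgeR adjusted p = 0.0303). DESeq2's Wald test gave adjusted p = 0.0674 for ERP44 and 0.124 for ERP27, and each lost its call on leaving out any of 4 single libraries, DMSO replicates 1 to 3 or WFA replicate 1 for ERP44 and DMSO replicates 2 and 3 or WFA replicates 1 and 3 for ERP27.

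Of 19 other hydroxylases that share the chemistry of the P4HA and PLOD enzymes, 15 were tested, with 5 higher and 5 lower by edgeR (25.8% and 24.7% over all tested genes) and a median log2 fold change of -0.11. PHYH, a peroxisomal enzyme of phytanic acid breakdown, rose with 1.27 (SE 0.13, edgeR adjusted p = 1.14e-06), JMJD6 with 0.97 (SE 0.12, edgeR adjusted p = 9.94e-06) and OGFOD2 with 0.73 (SE 0.18, edgeR adjusted p = 0.00385). OGFOD1, which hydroxylates a ribosomal protein, fell with -0.70 (SE 0.08, edgeR adjusted p = 5.00e-06). The ribosomal oxygenases RIOX2 and RIOX1, listed under the older symbols MINA and C14orf169, fell with -0.77 (SE 0.12, edgeR adjusted p = 7.01e-05) and -0.66 (SE 0.11, edgeR adjusted p = 0.000156). EGLN1, the main oxygen sensor of the hypoxia pathway, had a log2 fold change of -0.19 and did not pass the threshold.

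Of 27 genes that hypoxia-inducible factor is known to induce, 24 were tested. By edgeR, 11 were higher and 6 lower (25.8% and 24.7% over all tested genes), with a median log2 fold change of 0.30 (0.17 without DMSO replicate 2). BNIP3L, a mitophagy receptor, rose with 1.20 (SE 0.10, edgeR adjusted p = 1.29e-07), the glucose transporter SLC2A3 with 1.77 (SE 0.15, edgeR adjusted p = 2.30e-07) and ENO2 with 2.61 (SE 0.32, edgeR adjusted p = 8.70e-06). HK2, a hexokinase, fell with -2.35 (SE 0.16, edgeR adjusted p = 1.82e-08), the glucose transporter SLC2A1 with -1.03 (SE 0.10, edgeR adjusted p = 7.12e-07) and CITED2 with -0.83 (SE 0.12, edgeR adjusted p = 3.67e-05).

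All 16 tested HSF1-induced genes, a list from which SERPINH1 was left out, were higher by edgeR (25.8% over all tested genes), with a median log2 fold change of 2.27. BAG3, HSPH1 and FKBP4 led it by p-value, at log2 changes of 4.29 (SE 0.12, edgeR adjusted p = 4.33e-12), 2.93 (SE 0.12, edgeR adjusted p = 1.84e-10) and 2.82 (SE 0.13, edgeR adjusted p = 5.53e-10). SERPINH1, at 3.88, lay within the range of this list, from 1.56 for HSPA8 to 4.45 for HSPA1B, a gene whose reads can be split with a near-identical copy. P4HA1 (2.38) and PLOD1 (1.76) also lay within this range, P4HA2 (4.65) above it, and PLOD3, P4HB and PLOD2 below it. The part of HSF1 in these changes was not tested. The 18 genes of the ATF6 and XBP1 branches, where P4HB was left out, had 10 higher and 1 lower by edgeR (25.8% and 24.7% over all tested genes), with a median of 0.36. DNAJC3 rose with 1.05 (SE 0.10, edgeR adjusted p = 4.72e-07), HERPUD1 with 0.68 (SE 0.09, edgeR adjusted p = 1.79e-05) and DNAJB9 with 0.92 (SE 0.12, edgeR adjusted p = 2.25e-05), and EDEM1 fell with -0.42 (SE 0.08, edgeR adjusted p = 0.000684).

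**Figure D5:**
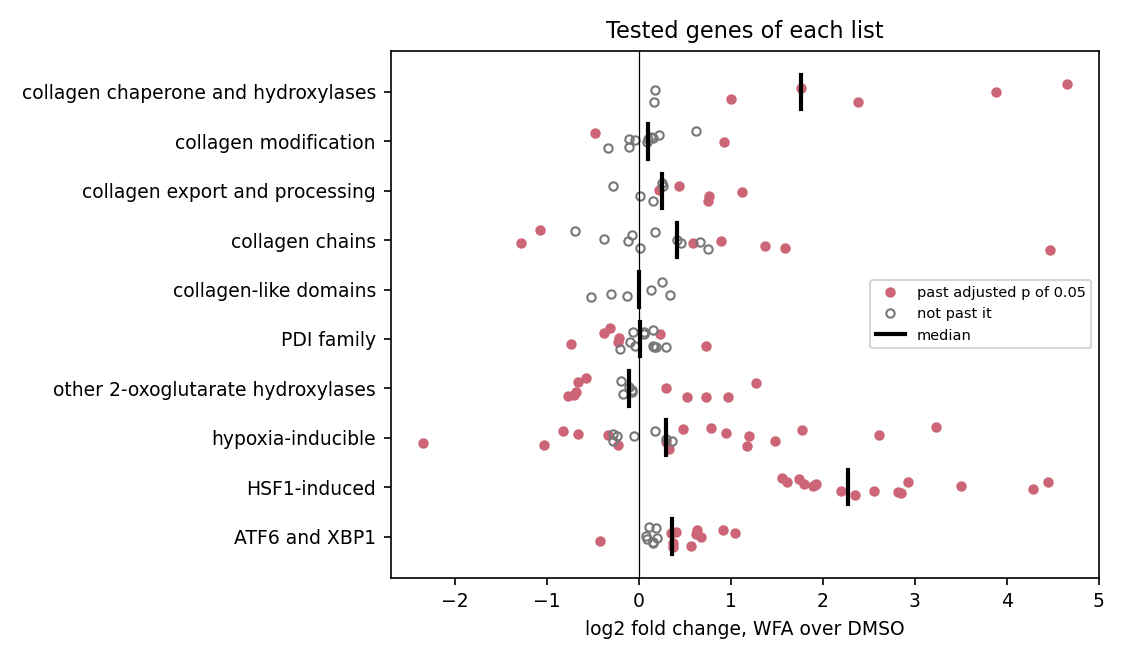
Log2 fold change of WFA over DMSO for every tested gene of each list (points, filled where past an edgeR adjusted p-value of 0.05) with the median of each list (black bar). The HSF1-induced genes all lie above 1 with a median of 2.27, the medians of the PDI family and the collagen modification partners are 0.01 and 0.10, and the hypoxia-inducible genes spread from -2.35 to 3.23.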

How the data were processed

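THP1 RNA was sequenced in 3 DMSO and 3 WFA libraries. The values used are raw read counts for each gene symbol as the authors deposited them, listed next to scaled counts, fold changes and p-values of their own that were not used. The submitters' processing notes name bcl2fastq 2.19, Trimmomatic, Bowtie2, Picard, featureCounts, DESeq2 and hg38. The annotation, the strand setting and the treatment of multiply mapped reads are not given in the sources used here.
Counts were tested with edgeR 4.0.16 (R 4.3.3) with TMM scaling, the filterByExpr filter (minimum count 10), the quasi-likelihood test and Benjamini-Hochberg adjustment over 12854 genes with a threshold of 0.05. A gene could pass this filter through the libraries of a single group, as COL1A1, P3H2 and ADAMTS3 did through WFA. For such genes, being tested and being called higher are not independent. On counts simulated for 12765 genes, 100% of 200 changed genes were recovered and 4.76% of the calls were false. These rates belong to those counts only, since 3311 genes were called higher and 3178 lower in the THP1 libraries. How often genes of the THP1 libraries were missed or falsely called, including those with few counts or small differences, was not tested. DESeq2 1.42.0 was an alternative, with other scalings, filters, a robust fit, each library left out and a replicate block. The sample descriptions of same-numbered libraries end in the same digits, which pairs them. These libraries also deviated together from their group means (r across genes of 0.22, 0.33 and 0.25). The main fit held no block, so its standard errors, intervals and adjusted p-values leave this pairing out. CPM used TMM library sizes, and RPKM the longest GENCODE 29 transcript. Each standard error was derived from the test, as the absolute log2 fold change divided by the square root of its F statistic. Intervals of folds used this standard error and assume a normal error, which makes them narrower than a t distribution would.
The members and lists were chosen with earlier results of these data known. Named from each list were at most 3 genes of smallest p past the threshold in each direction, and for each member the 2 closest profiles. Other list genes named were chosen after their values were seen. Symbols were matched through RefSeq, where 2 list genes had an older symbol. With 3 libraries per group from independent experiments, precision is set by the spread between them.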

Additional observations from a re-analysis of the deposited data

How the results depend on the processing

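Over the 8 other settings the log2 fold changes of the 7 genes, which were chosen with these values known, ranged from 3.80 to 3.90 for SERPINH1, 4.56 to 4.66 for P4HA2, 2.29 to 2.39 for P4HA1, 0.09 to 0.19 for P4HB, 1.68 to 1.78 for PLOD1, 0.09 to 0.19 for PLOD2 and 0.92 to 1.01 for PLOD3. With a library left out, PLOD2 ranged from 0.01 to 0.37 and P4HA2 from 4.51 to 4.82. The replicate block gave 3.90 for SERPINH1 and 4.65 for P4HA2, and among the counts of called genes it moved only that of the collagen modification partners called higher by over 1.5 times, from 1 to 2. PSMB4 was called under the block. Total counts moved the median of all tested genes from 0.02 to -0.06.
Counts or medians of several lists moved between settings. PDI family genes called higher went from 2 to 1 with DESeq2's size factors and with total counts, those called lower from 5 to 2 with a minimum count of 50, and with a library left out they numbered 1 to 3 and 2 to 5. Collagen modification partners called higher were 0 with a minimum count of 50 and in DESeq2's Wald test, and 0 to 1 with a library left out. Export and processing genes called higher were 3 in DESeq2's Wald test and 3 (without WFA replicate 1) to 5 with a library left out. In the collagen-like list, 1 (EMILIN2) was lower with total counts, and 1 (ACHE, which lacks that domain) was higher with no filter and in DESeq2's Wald test. The median of that list was -0.11 with a minimum count of 50 and -0.05 to 0.12 with a library left out. Leaving out a library gave medians of 0.29 to 0.54 for collagen chains and 0.17 (without DMSO replicate 2) to 0.33 for hypoxia-inducible genes. RHOBTB3, not called in any fit, ranged from -0.02 (without DMSO replicate 2) to 0.30.
Coding length in place of transcript length gave in WFA a P4HA1 to P4HA2 ratio of 1.15, a P4HA2 share of 46.5%, 24.2 alpha subunit reads and 106.0 SERPINH1 reads per 100 of P4HB, and a PLOD2 share of 3.29%, and in DMSO 8.05 SERPINH1 reads per 100 of P4HB. The cause of these shifts in called genes was not tested, while the length settings differ by construction. Most collagen chains failed the low-count filter and could not be compared at this depth.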
